A study of Mus musculus with 16 samples.

Results

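Long unmethylated valleys of mouse lymphocytes were taken as runs of 7 or more adjacent 500-bp tiles, counted from position 1 of chromosomes 1 to 19 of the mm10 (GRCm38) genome. Every tile of a run held 3 or more CpGs and 40 or more calls pooled over all 16 libraries, and had a pooled methylation level of 10% or less. A call is a CpG read as methylated or unmethylated in a sequenced fragment, and a level is the percentage of calls that were methylated. The pooled level therefore selected the members, and their low levels are described here without a test. The rule gave 503 valleys of 25674 runs of 1 or more such tiles. The remaining 25171 runs were 1 to 6 tiles long. The valleys covered 2116 kb in 4232 tiles, which was 7.65% of the tiles at 10% or less.

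The libraries were whole-genome bisulfite libraries of lymphocytes from spleens of male and female C57BL/6J mice aged 6 to 8 weeks. CD43- resting B cells and naïve CD4+ CD62L+ T cells had been separated with magnetic beads, and each cell type had 8 libraries, with 4 of each sex. Each combination of sex and cell type had 2 libraries from bisulfite sequencing (BS), which reads methylcytosine and hydroxymethylcytosine alike, and 2 from oxidative bisulfite sequencing (oxBS), in which hydroxymethylcytosine is oxidised first and reads as unmethylated. The samples came from pooled mice, and BS and oxBS libraries may hold portions of the same DNA, so that p-values here measure the spread between libraries, part of which may be technical.

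Most CpGs of a mammalian genome are methylated, while CpG islands, the CpG-rich stretches at many promoters, usually are not. Some unmethylated domains reach far beyond an island. Such valleys, also called canyons, are known for holding genes of developmental regulators, which Polycomb proteins keep silent in most tissues, and genes of transcription factors that a cell type uses. DNA methyltransferases and TET enzymes are both known to act at the borders of these domains.

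Libraries held between 118868248 and 164440353 calls on chromosomes 1 to 19, and a valley tile had a median of 180 calls per library and 3040 calls over all libraries. The start sites of the B cell markers Cd79a, Cd79b, Ms4a1, Blk and Pax5 were lower in every B than in every T cell library, with Ms4a1 at 6.11 ± 2.68% (SD, n = 8) and 93.0 ± 2.20% (SD, n = 8). Those of the 6 T cell markers (Cd3e, Cd3d, Cd3g, Cd4, Cd5 and Bcl11b) were lower in every T cell library, with Cd3e at 88.3 ± 2.42% in B and 2.14 ± 0.455% in T cells. Of 4 myeloid markers, the Csf1r start was at 92.3% in B and 95% in T cells, Lyz2 at 42.4% and 62.5%, Itgam at 66.6% and 53.5%, and Cd14 at 5.12% and 4.64%. A single library stood apart inside the valleys: replicate 2 of the male oxBS libraries of B cells was at 3.02%, while the other 7 B cell libraries lay between 1.86 and 2.34%. Levels over groups of valleys that rest on it are given with and without it.

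Sequences of 300 bases are shown for 5 places that the results below turn on, from the plus strand of the NCBI GRCm38 assembly, with the CpGs in capitals. They are the middle of the tile inside a valley with the largest difference in each direction (Hnrnpf and Hlx), the middle of the tile beside a valley with the largest difference in each direction (Satb1 and Nek8/Tlcd1), and the middle of the longest valley (Tnrc18). The stretches hold 5 CpGs at Hnrnpf, 9 at Hlx, 2 at Satb1, 4 at Nek8/Tlcd1 and 10 at Tnrc18.
Hnrnpf valley edge, chr6:117909101-117909400: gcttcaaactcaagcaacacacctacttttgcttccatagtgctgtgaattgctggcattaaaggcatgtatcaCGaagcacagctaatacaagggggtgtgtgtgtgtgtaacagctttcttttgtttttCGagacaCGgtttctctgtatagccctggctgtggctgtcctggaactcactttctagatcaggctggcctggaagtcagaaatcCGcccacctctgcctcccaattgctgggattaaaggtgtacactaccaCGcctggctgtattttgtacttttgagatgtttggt
Hlx valley edge, chr1:184735101-184735400: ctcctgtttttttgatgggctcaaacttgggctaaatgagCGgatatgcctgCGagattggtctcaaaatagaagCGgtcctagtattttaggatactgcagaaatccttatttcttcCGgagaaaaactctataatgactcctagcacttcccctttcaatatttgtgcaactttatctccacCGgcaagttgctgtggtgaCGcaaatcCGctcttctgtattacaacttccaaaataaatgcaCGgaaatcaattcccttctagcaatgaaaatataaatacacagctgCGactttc
beside the Satb1 valley, chr17:51807101-51807400: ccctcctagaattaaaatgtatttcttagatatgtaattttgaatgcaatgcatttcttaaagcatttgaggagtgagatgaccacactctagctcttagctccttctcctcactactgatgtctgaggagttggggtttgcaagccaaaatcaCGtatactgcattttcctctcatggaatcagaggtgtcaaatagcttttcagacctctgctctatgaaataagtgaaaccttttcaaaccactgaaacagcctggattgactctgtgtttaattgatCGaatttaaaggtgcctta
beside the Nek8/Tlcd1 valley, chr11:78174101-78174400: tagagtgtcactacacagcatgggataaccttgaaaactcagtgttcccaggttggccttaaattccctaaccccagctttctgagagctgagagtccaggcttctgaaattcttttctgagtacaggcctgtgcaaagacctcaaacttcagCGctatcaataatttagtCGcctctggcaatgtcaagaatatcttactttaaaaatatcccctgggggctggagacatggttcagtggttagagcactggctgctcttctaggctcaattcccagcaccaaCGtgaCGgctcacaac
centre of the Tnrc18 valley, chr5:142818851-142819150: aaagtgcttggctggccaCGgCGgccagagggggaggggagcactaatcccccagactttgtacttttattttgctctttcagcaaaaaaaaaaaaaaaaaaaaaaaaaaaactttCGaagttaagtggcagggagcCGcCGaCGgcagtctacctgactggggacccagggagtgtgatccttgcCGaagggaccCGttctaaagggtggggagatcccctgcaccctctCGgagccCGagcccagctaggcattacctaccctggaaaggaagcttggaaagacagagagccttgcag
The Satb1 stretch had the lowest CpG density of the 5, with an observed over expected CpG ratio of 0.179, and the Hlx stretch the highest ratio, 0.738. All 5 had fewer CpGs per base than the median valley tile, which held 24.0 CpGs in 500 bp, and over all valley tiles the ratio was 0.676.

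The valleys were CpG-rich and mostly at promoters. They were 3.5 to 9.0 kb long with a median of 4.0 kb, and 221 of them had exactly 7 tiles, while 101 had 10 or more. A start site of a protein-coding gene lay in 434 valleys (86.3%), another 24 overlapped a protein-coding gene and 45 lay between genes and are named by the nearest start. In all, 473 of 20698 protein-coding genes (2.29%) had a start in a valley. The tiles held 55.4 CpGs per kb and 57.0% G and C, against 50.9 CpGs per kb and 56.2% in shorter runs and 12.4 CpGs per kb and 44.1% in all tiles. Single valleys ranged from 13.1 to 109 CpGs per kb. Chromosome 11 had the most, 53 valleys or 43.4 per 100 Mb, and chromosome 16 the fewest, 9 valleys or 9.16 per 100 Mb.

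The rule cuts a continuous distribution. There were 426 runs of 6 tiles, just too short to be members, with a median level of 1.06% (0.174 to 7.89%), 57.5 CpGs per kb and a protein-coding start in 373 (87.6%). Valleys of exactly 7 tiles had a median level of 1.5%. At the level limit, 131 valley tiles were above 9%, and of the 1006 valley ends, 909 lay at a tile above 10% and 97 at a tile with fewer than 3 CpGs. The tile that ended a valley had a median level of 27.7%, and 60 of these tiles were between 10 and 11%, 335 between 10 and 20%, and 57 at 80% or more. Most of these tiles thus had an intermediate pooled level. A sharp end within a tile, or an end placed differently in the 2 cell types, gives such a level too. The shape of the ends was therefore not determined.

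Levels inside the valleys sank and the CpG density rose over the 3 outermost tiles, and beyond these both changed little. The outermost tiles had 37.7 CpGs per kb and a pooled level of 3.75%. In the second tile from the end these were 57.0 CpGs per kb and 1.99%, in the third 63.6 CpGs per kb and 1.71%, and in the fourth 62.9 CpGs per kb and 1.74%. Over all valley tiles the pooled level was 2.15% and the median tile was at 1.60%, with 77.9% of tiles at 5% or less. Whole valleys lay between 0.178% at Chd3, which encodes a chromatin remodeller, and 7.57%, with a median of 1.56%. The valley at 7.57% was named by Hmx1, a homeobox gene, but held no protein-coding start. Unconverted cytosines also count as methylated calls, and their share was not measured here, so the lowest levels are upper limits.

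B and T cells had similar levels inside the valleys as a whole. B cell libraries were at 2.23 ± 0.350% (SD, n = 8), with a lowest, median and highest value of 1.86, 2.16 and 3.02%. T cell libraries were at 2.10 ± 0.114% (SD, n = 8), with 1.96, 2.11 and 2.23%. The groups overlapped, and the difference of 0.134 points was 0.0214 points without replicate 2 of the male oxBS libraries of B cells. Inside the shorter runs the same library was also the highest, at 3.02%. In T cells the 4 BS libraries were at 2.20 ± 0.0192% and the 4 oxBS libraries at 1.99 ± 0.0315%, without overlap. B cells did not show this order, with 2.12 ± 0.199% in BS and 2.34 ± 0.464% in oxBS libraries, or 2.12 ± 0.129% in the 3 oxBS libraries other than replicate 2. With BS libraries alone the difference between B and T cells was -0.0803 points, and with oxBS libraries alone 0.348 points, or 0.122 points without replicate 2, so its sign depended on the assay.

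**Figure D1:**
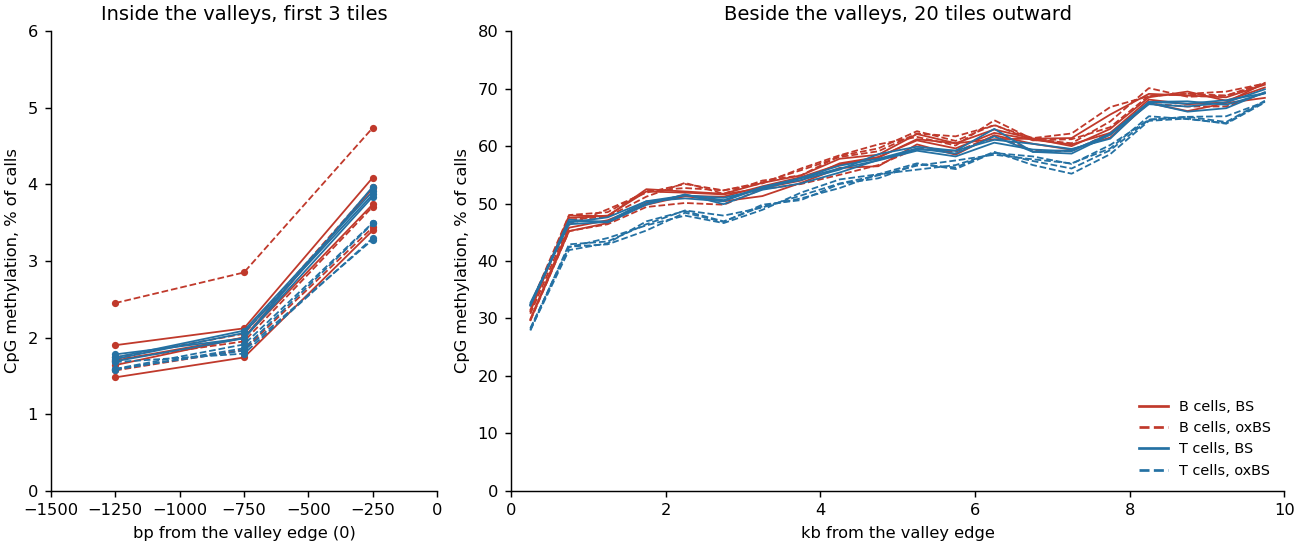
CpG methylation (% of calls) of each of the 16 libraries in the 3 outermost tiles inside the valleys (left) and in 20 tiles outward from the ends (right), with B cells and T cells in different colours, BS libraries as solid and oxBS libraries as dashed lines. Inside, 1 B cell library lies above the others, and outside, the 4 oxBS libraries of T cells form the lowest group.

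Outside the valleys the level climbed over several kb. The first tile outward was at 29.6 to 32.3% in B and 27.9 to 32.7% in T cell libraries, the tenth at 56.5 to 60.3% and 54.4 to 58.6%, and the twentieth at 68.4 to 71% and 67.6 to 69.9%. Even 10 kb away, these surroundings were below the level of whole libraries, which was 78.4 to 81.5%. In the first 1 kb, B cell libraries had 38.0 ± 1.08% (SD, n = 8) and T cell libraries 36.7 ± 2.34% (SD, n = 8), and the groups overlapped. The spread in T cells followed the assay: 4 BS libraries were at 38.9 ± 0.142% and 4 oxBS libraries at 34.5 ± 0.204%. In B cells the BS libraries were at 37.8% and the oxBS libraries at 38.1%. The difference between B and T cells in the first 1 kb, 1.32 points over all libraries, was -1.02 points in BS libraries alone and 3.66 points in oxBS libraries alone. From 1 to 5 kb B cells had 53.1 ± 0.977% and T cells 50.8 ± 1.73%, and from 5 to 10 kb 64.3 ± 0.926% and 61.8 ± 1.36%, both with overlap. In BS libraries alone these were 52.8% against 52.4% and 64.0% against 63.1%, and in oxBS libraries alone 53.4% against 49.2% and 64.6% against 60.5%.

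Tile by tile, the 2 cell types were compared in a quasi-binomial fit that also held sex and assay terms and ran over every tile of chromosomes 1 to 19. Calls needed a Benjamini-Hochberg adjusted p below 0.05 together with pooled levels at least 10 points apart. Of 2822753 tiles tested over the genome, 130539 (4.62%) were called, 83138 (2.95%) higher in B and 47401 (1.68%) higher in T cells. Inside valleys 39 of 4231 tested tiles (0.922%) were called, 33 higher in B and 6 higher in T cells. The pooled limit of 10% allows a difference of only about 20 points at equal depth, and the largest inside was 19.5 points, so this share was limited by the rule. In tiles at 10% or less in general 2.40% were called, 988 higher in B and 339 higher in T cells. In the shorter runs 2.52% were called, 955 higher in B and 333 higher in T cells, so most called tiles there were higher in B cells too. The median absolute difference inside valleys was 0.539 points. With no limit on the difference 246 inside tiles (5.81%) passed, 186 higher in B and 60 higher in T cells. The share was 5.30% of all tiles tested, but 8.59% of tiles at 10% or less and 8.82% inside the shorter runs. In the shorter runs 3334 of these were higher in B and 1167 higher in T cells.

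Called tiles inside sat mostly at the ends of the valleys, which the limit of 10 points favours. Tiles with very low pooled levels cannot reach 10 points at equal depth, and deeper tiles had lower levels. Of the 39, 33 were the outermost tile (3.28% of the tested outermost tiles), 3 were the second, 3 the third and none of 1214 lay deeper. With no limit on the difference, 10.4% of the outermost tiles passed, 5.27% of the second, 4.77% of the third and 3.29% of those deeper, which were 40 tiles. The called tiles at 10 points or more are described next. They lay in 37 valleys, 31 with tiles higher in B and 6 with tiles higher in T cells. In 26 of the 39 tiles every library of the higher cell type lay above every library of the lower. A call needs a difference, which favours such a separation, and the share among called tiles elsewhere is not given here.

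**Figure D2:**
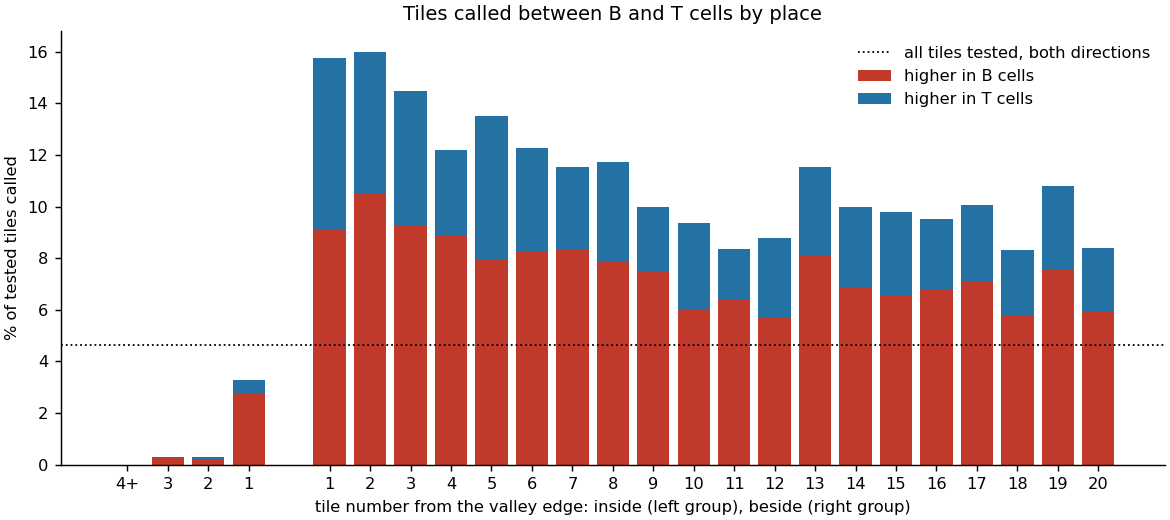
Percentage of tested tiles called between B and T cells by tile number from the valley end, inside (left group) and beside (right group), stacked as higher in B and higher in T cells, with the share of all tiles tested (4.62%) as a dotted line. Inside, the outermost tile reaches 3.28% and deeper tiles are near 0, and beside the valleys the share falls from 15.7% in the first tile to 9.36% in the tenth.

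The 10 inside tiles with the largest differences higher in B cells lay in 10 different valleys. At Hnrnpf, which encodes an RNA-binding protein, the outermost tile (chr6:117909001-117909500, intron, 2401 bp from the start) had a lowest, median and highest level of 10.3, 20.8 and 36.7% in B and 0, 0 and 3.51% in T cell libraries. All B cell libraries were above all T cell libraries, with 21.1 ± 8.30% against 0.736 ± 1.40%. The pooled difference was 19.5 points, with an adjusted p of 9.52e-05. At Pfn1, which encodes the actin-binding protein profilin, the outermost tile (chr11:70652501-70653000, exon) had 6.67, 16.6 and 29.5% in B cell libraries. No methylated call was found there in any T cell library, and the adjusted p was 1.32e-05. At Kdm6b, a histone demethylase gene, the outermost tile (chr11:69412001-69412500, intron) had 9.30, 18.4 and 39.5% in B and 0, 0.746 and 2.48% in T cell libraries, again without overlap. Its adjusted p was 2.12e-04.

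The remaining 7 were at Slc43a2, Patz1, Bcl6, Sp3, Tspoap1, Zbtb7b and Midn, with pooled differences of 19.3, 17.5, 16.6, 16.4, 15.8, 15.0 and 14.6 points. The Tspoap1 tile lay between genes, 9791 bp from the nearest start, that of Tspoap1. At Zbtb7b, whose product ThPOK directs thymocytes to the CD4 lineage, the outermost tile (chr3:89390001-89390500, intron) was at 15.4 ± 6.84% in B and 0.231 ± 0.655% in T cells. At Slc43a2, Bcl6 and Sp3 the libraries of the groups overlapped, with 1 B cell library at 0 in each and, at Sp3, 1 T cell library at 10.0%. These tiles had few calls, with 10 to 57 per library over the 3.

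Higher levels in T cells were found in the 6 inside tiles at Hlx, Dusp2/Astl, Klhl14, Zfp217, Pax5 and Mgat1. At Hlx, a homeobox gene used in blood cell development, the outermost tile (chr1:184735001-184735500, 2631 bp from the start) had 18 CpGs and 102 to 183 calls per library. Its lowest, median and highest levels were 0, 0 and 1.27% in B and 14.9, 18.2 and 23.0% in T cell libraries. The groups were far apart, with 0.240 ± 0.474% against 18.4 ± 3.06%, and the adjusted p was 7.12e-07 for a pooled difference of -18.3 points. At Dusp2/Astl, the former encoding a phosphatase of MAP kinases, the second tile (chr2:127334501-127335000) had 0, 0 and 2.78% in B and 7.89, 15.3 and 25.9% in T cell libraries. Klhl14 had 0.597 ± 0.878% and 15.2 ± 6.03%, and both tiles were without overlap.

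The other 3 tiles higher in T cells overlapped between groups. At Pax5, the gene of the factor that fixes B cell identity, the outermost tile (chr4:44706001-44706500, intron, 2244 bp from a start) had 0, 2.31 and 9.88% in B and 6.80, 16.6 and 23.7% in T cell libraries. The call was lost in 13 of 28 alternative settings, among them a limit of 20 points, which no inside tile met. It had an adjusted p of 0.0243. Leaving out any of 7 libraries (B cell libraries 1, 4 and 11 and T cell libraries 7, 8, 13 and 15) brought it to between 0.0515 and 0.0605. At Zfp217 the adjusted p was 0.0330 and the call was lost in 14 of 28 settings. Leaving out any of 8 libraries (B cell libraries 1, 3, 4, 11 and 12 and T cell libraries 5, 8 and 13) brought it to between 0.0513 and 0.117. Mgat1, which encodes an enzyme of N-glycan synthesis, had 1.21 ± 2.19% in B and 12.3 ± 5.49% in T cells and lost its call in 6 of 28.

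**Figure D3:**
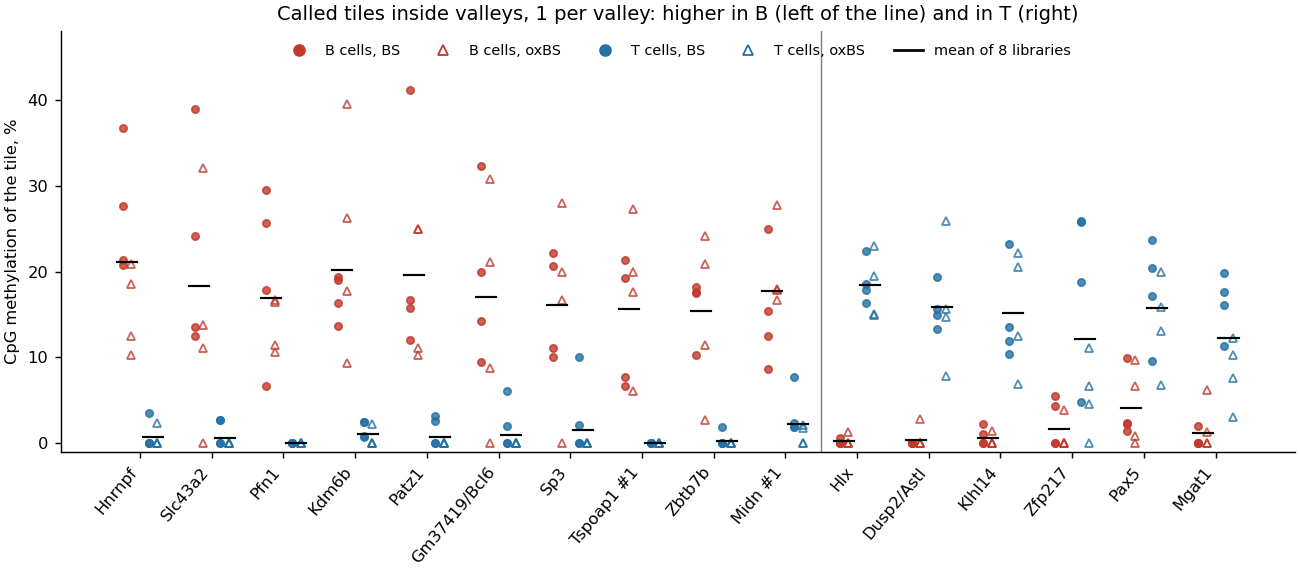
CpG methylation (%) of each of the 16 libraries in the called tile with the largest difference of each valley, for 10 valleys with tiles higher in B cells (left of the line) and 6 higher in T cells (right). In most tiles 1 cell type lies near 0, and the other spreads over 10 or more points.

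Beside the valleys far more tiles were called than inside. Within 5 kb, or 10 tiles on each side, 1014 of 7953 tested tiles (12.7%) were called, 667 (8.39%) higher in B and 347 (4.36%) higher in T cells, against 4.62%, 2.95% and 1.68% of all tiles. The share was 15.7% in the first tile outward, 16.0% in the second, 9.36% in the tenth and 8.41% in the twentieth. Beside shorter runs it was 11.2%, and 15.4% in the first tile, so that a high share beside an unmethylated run was not particular to the valleys. Tiles at 10% or less were left out beside shorter runs but kept beside valleys. There they were 796 of the tested tiles, of which 13 (1.63%) were called, so the shares over 5 kb were counted on unlike tiles. The share of called tiles also went with their pooled level. Of those above 10 and under 80%, 23.2% were called beside valleys and 20.8% in the whole genome. A difference between the cell types can itself bring a pooled level into this class. At 80% or more the shares were 4.67% and 1.73%.

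The called tiles were spread unevenly over the valleys. At least 1 lay beside 272 valleys, of which 111 had only tiles higher in B cells, 76 only tiles higher in T cells and 85 both. Beside 231 valleys none was called at these thresholds, and 79 valleys had 5 or more. The most were 16 of 19 tested tiles, all higher in B cells, beside Zc3hav1, which encodes an antiviral zinc finger protein. Gramd1a had 15 of 18 and Bach2, a repressor that acts in B and T cells, 14 of 16, all higher in B cells. The Bach2 valley overlapped the gene but held no protein-coding start.

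Among the gene lists, the T cell list had the largest share of called tiles. Its valleys held starts of Satb1, Lef1, Bcl11b and Zbtb7b, 4 of 34 genes listed, and 45 of the 69 tiles tested beside them (65.2%) were called, 41 higher in B and 4 higher in T cells. The lists were drawn up with results of these data known. Satb1 encodes a chromatin organiser of thymocytes and T cells, Lef1 a factor that binds beta-catenin, and Bcl11b a repressor that T cells need to keep their identity.

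All 13 tested tiles beside the Satb1 valley were higher in B cells. Their pooled levels were 63.5 to 99.3% in B and 0 to 3.70% in T cells. In the ninth tile outward (chr17:51807001-51807500, intron, 3669 bp from a start) the lowest, median and highest levels were 93.2, 96.6 and 100% in B and 0, 0 and 1.79% in T cell libraries. This tile, whose middle is printed above, had the largest difference among the tiles beside valleys, 96.1 points, with an adjusted p of 6.81e-09. Inside the valley (chr17:51811501-51815000) the levels were 0.520, 0.641 and 2.30% in B and 0, 0.109 and 0.406% in T cell libraries. Low levels in T cells were thus found on both sides of the valley, although the run of tiles at 10% or less, as counted below, was 7 tiles in both cell types, since it stopped on each side at a tile with fewer than 3 CpGs.

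Lef1 showed the same on part of its surroundings. Of 19 tested tiles, 9 were higher in B and 3 higher in T cells. In the fourth tile outward (chr3:131115001-131115500, exon, 2453 bp from a start) B cell libraries had 89.5, 96.4 and 100%, and T cell libraries had no methylated call. The adjusted p was 1.41e-08. In the 9 tiles higher in B cells, the pooled levels were 27.1 to 96.0% in B and 0 to 3.28% in T cells. In the 3 others, they were 25.2 to 62.2% and 73.3 to 86.6%. Inside the 7.5 kb valley, the levels did not overlap, with 0.824 ± 0.224% in B and 0.327 ± 0.120% in T cells. How many valleys in all were without overlap is not given here.

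Bcl11b differed within the valley as well. Inside (chr12:108001501-108006500) B cell libraries had 3.67, 4.32 and 5.63% and T cell libraries 0.292, 0.675 and 0.961%, without overlap. Beside it 7 of 18 tiles were higher in B and 1 higher in T cells. The fourth tile outward (chr12:107999501-108000000, intron) was at 82.7 ± 3.49% in B and 0.341 ± 0.631% in T cells, and its adjusted p was 8.10e-09. Zbtb7b had 12 of 19 tiles higher in B cells and none higher in T cells. Its seventh tile outward (chr3:89386501-89387000, intron, 439 bp from another start) was at 93.6 ± 2.22% and 4.09 ± 3.72%, with an adjusted p of 2.16e-08.

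**Figure D4:**
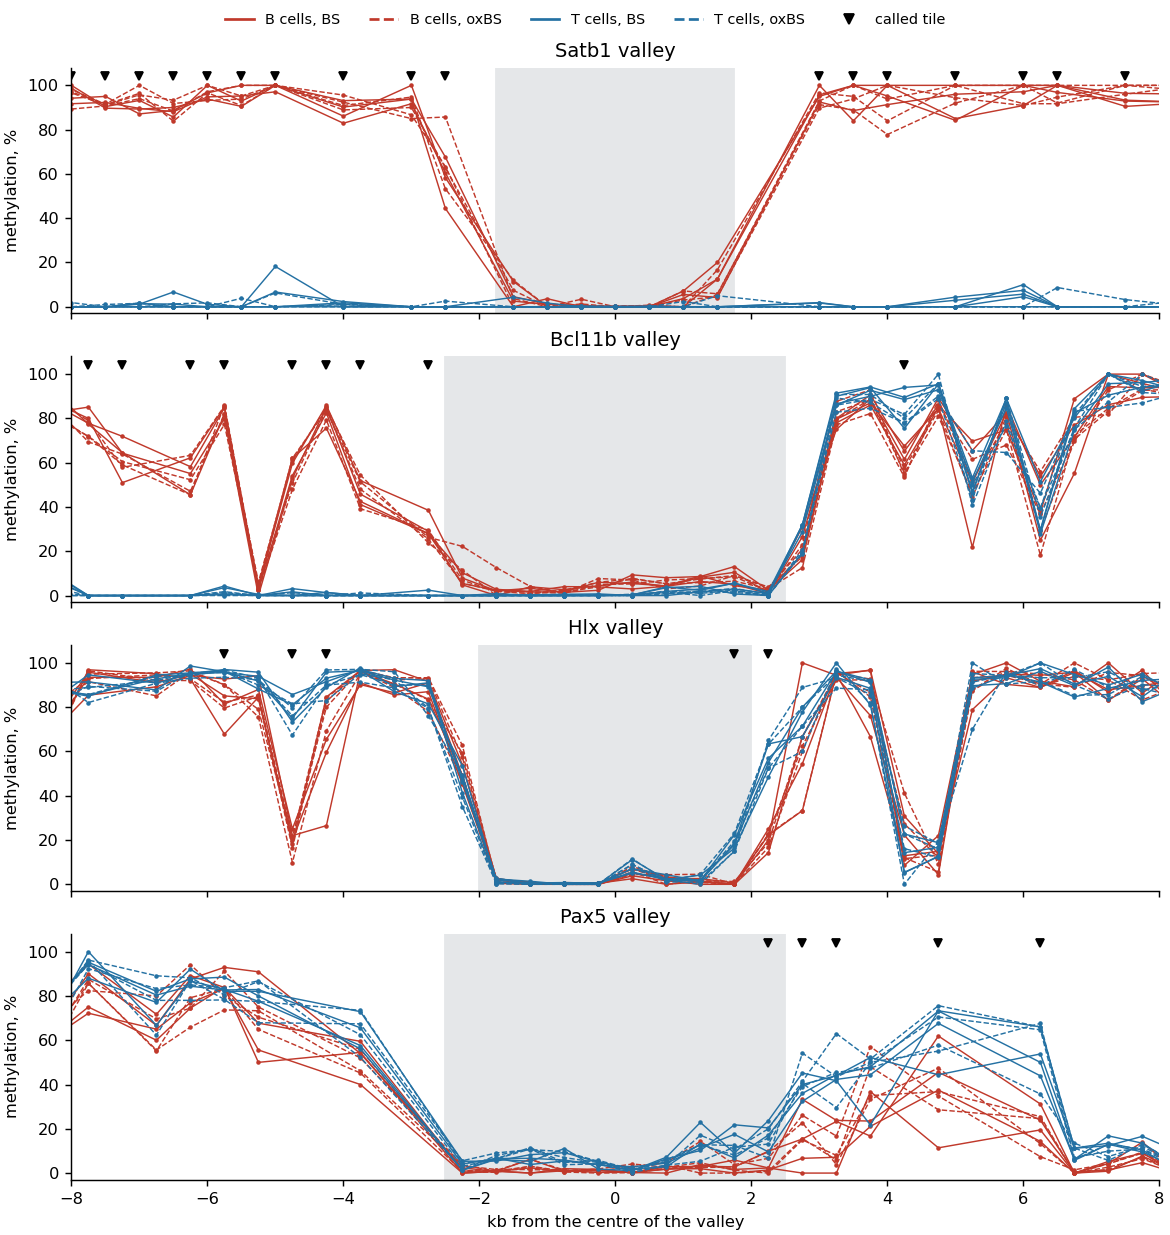
CpG methylation (%) of each of the 16 libraries in 500-bp tiles from 8 kb before to 8 kb after the centre of the Satb1, Bcl11b, Hlx and Pax5 valleys (grey), with called tiles marked by triangles. T cells stay near 0 on both sides of the Satb1 valley where B cells are above 60%, and T cells are higher than B cells in the Pax5 valley.

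The 4 valleys of the B cell list held starts of Pax5, Foxo1, Bcl11a and Bcl6, 4 of 30 genes. Beside them, 25 of 65 tested tiles (38.5%) were called, 11 higher in B and 14 higher in T cells. Inside the Pax5 valley (chr4:44701501-44706500) B cell libraries had 0.634, 1.48 and 2.70% and T cell libraries 5.05, 5.45 and 6.26%, without overlap. Beside it, 4 of 12 tiles were higher in T cells, at 40.8 to 65.1% against 10.5 to 39.0% in B cells. Bcl11a, a zinc finger gene of B cell development, lay in a valley of 8.50 kb with 5 of 17 tiles higher in T cells. Foxo1, whose factor drives genes of both lineages, had 8 of 17 tiles higher in B and 3 higher in T cells. Bcl6, the germinal centre repressor, had 3 of 19 tiles higher in B and 2 higher in T cells.

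The list of genes that both cell types use had a share near that of the B cell list. It had a start in a valley for 7 of 18 genes (Ikzf1, Arhgdib, Runx2, Fli1, Myb, Foxp1 and Cxcr4), and 39 of 112 tiles beside them (34.8%) were called, 21 higher in B and 18 higher in T cells. By gene, 2 valleys had more tiles higher in B and 5 more tiles higher in T cells. Ikzf1, the Ikaros gene, had 8 of 17 tiles higher in B cells and levels inside of 3.02 ± 0.978% in B and 0.450 ± 0.366% in T cells. Arhgdib had 10 higher in B and 2 higher in T cells of 17. Runx2, Myb and Foxp1 had 3 each, all higher in T cells, while Fli1 had 2 higher in B and 4 higher in T cells of 15, and Cxcr4 1 and 3 of 15. At Foxp1 the second tile outward (chr6:99519501-99520000) was at 17.2 ± 7.51% in B and 86.5 ± 8.12% in T cells. Its adjusted p was 4.20e-07. A second valley, named by Foxp1 and Gm20696 and not among the 7, went the other way inside. Its outermost tile (chr6:99263001-99263500, intron of Foxp1) was at 14.7 ± 7.37% in B and 1.38 ± 2.58% in T cells, with overlap. The adjusted p there was 0.00724.

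Taking only the called tile with the largest difference of each valley, the largest of these beside valleys lay at genes on and off the lists. Those higher in B cells, after Satb1, Lef1 and Zbtb7b, were at Fam102a (89.8 points), Bach2 (85.3), Ranbp9 (85.3), Gramd1a (83.7), Bcl11b (82.6), Cux1 (82.3) and the Tspoap1 valley at chr11:87748501-87752000 (81.5). In all 10, which were picked for their large differences, the libraries did not overlap, and 8 stayed called under every alternative tried. Those higher in T cells were at Nek8/Tlcd1, Plekha2, Nipbl, Slc43a2, Foxp1, Maf, Nfatc1, Zfp516, Zfpm1 and Hlx, with pooled differences from -85.3 to -58.6 points. At Nek8/Tlcd1 the fourth tile outward (chr11:78174001-78174500, intron of Nek8) had 1.85, 11.1 and 17.5% in B and 94.0, 95.6 and 100% in T cell libraries. The adjusted p was 1.77e-08. At Plekha2, which encodes an adaptor of phosphoinositide signalling, the third tile outward (chr8:25104501-25105000) had 3.33, 10.1 and 13.6% against 78.5, 90.9 and 96.6%, and 7 of the 15 tiles beside this valley were higher in T cells. The tiles at Nipbl and Maf had only 4 to 25 and 2 to 22 calls per library.

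Few tiles were called beside valleys of developmental regulators. The 6 developmental lists (Hox, other homeobox, T-box, Fox/Sox/Gata, bHLH/Zic/Gli, and Wnt, Bmp, Fgf and hedgehog ligands) had starts in 70 valleys, and 24 of the 1090 tiles beside them (2.20%) were called, 7 higher in B and 17 higher in T cells, against 12.7% beside all valleys. The median level inside these valleys was 3.60%. Beside the 143 valleys with a pooled level above 3%, whatever their genes, 1.65% of tiles were called. Whether the low share goes with the genes or with the level was not tested. Among the 15 valleys of the 3 lymphocyte lists the share was 44.3%, 109 of 246. Tiles above 10 and under 80% were 659 of 1090 beside the developmental and 151 of 246 beside the lymphocyte valleys. Of these 3.19% and 64.9% were called. This class is cut on the level pooled over both cell types, so a large difference can itself place a tile in it. The 2 shares therefore do not compare tiles of equal level. The surroundings also differed in level, with means of 24.9% in B and 25.2% in T cells beside the developmental and 61.6% and 50.5% beside the lymphocyte valleys. At least 1 called tile lay beside 9 of the 70 developmental and beside all 15 lymphocyte valleys.

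By family, 40 of 113 homeobox genes outside the Hox clusters had a start in 41 valleys, among them Lhx8, Lbx1, Prox1, Pax6, Otx2 and Nkx2-1. Of 643 tiles beside these, none was higher in B and 13 were higher in T cells (2.02%), and 4 of the 13 were beside Hlx. Starts of 3 of 39 Hox genes lay in 2 valleys, with none of 29 tiles called. T-box genes had 3 of 16, with 1 of 44 tiles called, and Fox, Sox and Gata genes 9 of 34, with 4 of 144. Developmental bHLH, Zic and Gli genes had 9 of 40, with 4 of 135, and the secreted ligands 6 of 50, with 2 of 95. Of 18 housekeeping genes only Ywhaz had a start in a valley, with 5 of 12 tiles called (41.7%).

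The developmental valleys also had more methylation inside. Their median level was 3.60% (1.48 to 6.14%), against 0.912% in the lymphocyte valleys and 1.56% in all. B cell libraries had a lowest, median and highest level of 3.28, 3.49 and 4.33% in the 70 valleys and T cell libraries 3.62, 3.83 and 3.97%. Only 20 of the 70 had a higher pooled level in B cells, against 13 of the 15 lymphocyte valleys and 307 of all 503. Without replicate 2 of the male oxBS libraries of B cells these were 14, 12 and 278. The count moved with the level of the valleys in general, with 176 of the 190 valleys at 1% or less and 21 of the 143 above 3% higher in B cells. Without replicate 2 of the male oxBS libraries, B cells were at 3.46 ± 0.129% (n = 7) and T cells at 3.83 ± 0.114% (n = 8), and 1 B cell library, at 3.68%, reached the T cell range.

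This order was also seen when all valleys were grouped by their pooled level, a grouping made after the data had been seen. The 190 valleys at 1% or less were at 0.791 ± 0.336% in B and 0.380 ± 0.0918% in T cells, and without replicate 2 at 0.682 ± 0.149% in B cells, with overlap in either case. The 170 between 1 and 3% had 2.13 ± 0.395% and 1.82 ± 0.210%, a difference of 0.313 points, and without replicate 2 B cells were at 2.01 ± 0.177% and the difference was 0.185 points. These libraries overlapped in either case too. In BS libraries alone B cells lay at 1.75 to 2.28% and T cells at 2.0 to 2.02%, and in oxBS libraries alone the difference was 0.618 points, or 0.358 points without replicate 2. In the 143 above 3% the order turned: T cell libraries were at 4.61, 4.70 and 4.77%, and 7 B cell libraries at 3.88 to 4.29%, with replicate 2 at 4.97%. The share of tiles called beside them was 22.2% (464 higher in B and 204 higher in T cells of 3015), 11.2% and 1.65% (19 and 17 of 2178). Among tiles above 10 and under 80%, it was 45.0%, 22.4% and 2.66%. This class is again cut on pooled levels, so a difference can itself place a tile in it. By length of the valley, the share of all tested tiles beside it was 12.6% at 7 tiles, 12.4% at 8 or 9 and 13.6% at 10 or more.

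**Figure D5:**
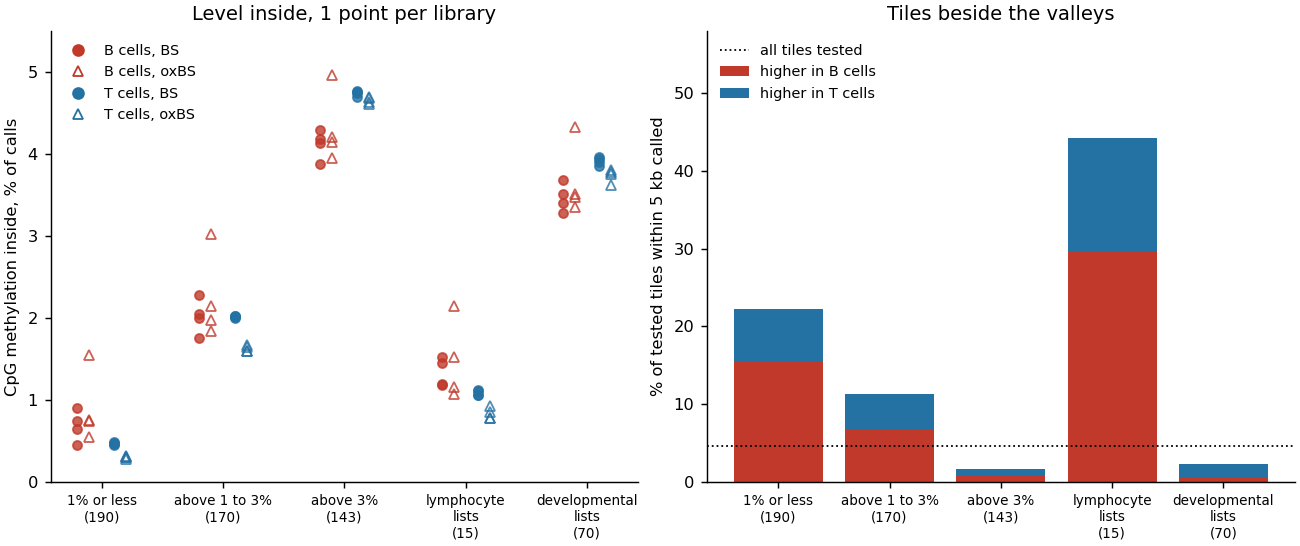
Left, CpG methylation inside the valleys (% of calls) of each of the 16 libraries for valleys grouped by pooled level and by gene lists, with the number of valleys in parentheses. Right, percentage of tested tiles within 5 kb called, higher in B and higher in T cells stacked, with all tiles tested (4.62%) as a dotted line. Called tiles become fewer from the valleys at 1% or less (22.2%) to those above 3% (1.65%).

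Length of the low run was then compared between pooled B and pooled T calls, at 10% or less and 20 or more calls per tile. It was counted as the tiles of the valley plus the low tiles that adjoin its ends outward. Inside tiles above 10% in that cell type were subtracted wherever they lay. The count is thus not always 1 unbroken run. It was equal in 283 valleys, longer in B cells in 124 and longer in T cells in 96. The means were 8.41 tiles in B and 8.36 tiles in T cells, and 12 and 10 valleys differed by 3 or more tiles. This split turned with the assay: BS libraries alone gave 140 longer in B and 90 longer in T cells, and oxBS libraries alone gave 112 and 143. Developmental valleys were more often counted as longer in B cells, with 29 of 70 longer in B and 1 longer in T cells. Other homeobox genes had 18 and none. Of all valleys above 3%, 59 of 143 were longer in B and 6 longer in T cells, and the counts by list and level were made on both assays together. Lymphocyte valleys had 3 longer in B and 7 longer in T cells. In these counts a gap of 1 tile weighed as much as a larger one. At Ihh, Lhx6 and Tbr1 the gap was 1 tile, an inside tile above 10% in T cells. At Hoxa13 and Shh it was 3 tiles. Valleys with higher levels lie closer to the 10% limit, and how far this set the counts by list and level was not tested. The counts therefore do not show by how much the runs differed. When the rule was applied to each cell type alone, with 20 or more calls, B cells gave 526 valleys and T cells 566, of which 101 and 141 did not overlap a valley of the other cell type.

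Among the largest gaps in favour of B cells were Lyl1/Nfix (16 tiles in B and 8 in T cells), Ebf2 (14 and 8), Prdm12 (13 and 9) and Lhx5 (14 and 10). Of these 4 valleys, only at Lyl1/Nfix were tiles beside the valley called, 7 of 19, all higher in T cells. Lyl1 is a bHLH gene of blood progenitors, and the other 3 encode developmental transcription factors. The Lyl1/Nfix and Lhx5 valleys overlapped their genes without holding a protein-coding start, and the Prdm12 valley was named by the nearest start. At Prdm12 the T cell libraries were higher inside without overlap, 7.95 ± 0.658% against 6.53 ± 0.320%, and at Ebf2 and Lhx5 the groups overlapped. In favour of T cells were Per1 (5 in B and 12 in T cells), a circadian clock gene, the second valley near Tspoap1, at chr11:87754001-87758000 (8 and 15), Lrrfip1 (5 and 11), Setd1b (11 and 17), a histone methyltransferase gene, and Zbtb7b (12 and 16). Here called tiles higher in B cells lay beside every valley, 2 at Per1, 5 at Tspoap1, 8 at Lrrfip1, 7 at Setd1b and 12 at Zbtb7b, and 1 tile higher in T cells lay beside each of Per1, Tspoap1 and Lrrfip1.

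The 10 longest valleys joined both kinds of genes. Tnrc18 was first with 9.0 kb (chr5:142814501-142823500) and 498 CpGs, at 0.811 ± 0.365% in B and 0.861 ± 0.162% in T cells, and the groups overlapped. It was followed by Bcl11a, Zfp36l2 and Lbx1 with 8.50 kb, Lhx8 and Pdgfra with 8.00 kb, and Prox1, Lef1, Tfap2a and Zic2 with 7.5 kb. Zfp36l2, which encodes an RNA-decay factor, was the least methylated of them, at 0.537 ± 0.299% and 0.168 ± 0.124%. The 5 developmental genes Lhx8, Pdgfra, Prox1, Tfap2a and Zic2 had levels of 3.35 to 4.63% in B and 3.47 to 5.28% in T cells and no called tile within 5 kb, and Lbx1 had 1. Beside Tnrc18 2 tiles were called, beside Bcl11a 5, beside Zfp36l2 4 and beside Lef1 12.

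Neither sex nor assay gave a called tile inside or beside the valleys. For sex, an unadjusted p under 0.05 was found in 283 of 4231 inside tiles (6.69%) and 227 of 7953 tiles beside (2.85%). Over all tiles tested the share was 2.88%. Limma on log2 ratios also called none inside or beside the valleys. For assay the counts were 271 inside (6.41%) and 929 beside (11.7%), against 5.19% of all tiles, with none called by limma. When the dispersion could fall below 1, and at any size of difference, 17 inside tiles and 1 tile beside passed for sex and 15 and 4 for assay. Over all tiles 792 passed for sex and 1185 for assay. The median difference of oxBS minus BS libraries beside the valleys was -1.17 points, against -0.458 points over all tiles. In T cells alone BS libraries were higher in 72.0% of the tiles beside valleys, with a median difference of 2.33 points. An unadjusted p under 0.05 was found in 1130 of these tiles (14.2%). Over all tiles these values in T cells were 60.8%, 0.869 points and 4.21%. In B cells alone BS libraries were higher in 48.6% of the tiles beside valleys, with a median of -0.0911 points and 115 tiles (1.45%). Over all tiles the values in B cells were 49.3%, -0.0306 points and 1.18%. With the dispersion kept at 1 or above, no tile passed the adjusted threshold in either cell type or for the difference between them. For that difference, 829 tiles beside valleys (10.4%) had an unadjusted p under 0.05, against 4.75% of all tiles. Without that floor 49 inside tiles and 33 tiles beside passed in T cells, 19 and 7 in B cells, and none for the difference between them. Over all tiles 5553 passed in T cells, 5250 in B cells and 105 for the difference. These fits by cell type were added after the levels beside the valleys had been seen.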

How the data were processed

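Per the labels, the libraries came from spleens of C57BL/6J mice, and the authors trimmed reads with Trim Galore 0.6.0, aligned them to mm10 with Bismark 0.20.0 and used SAMtools 1.3.1. They extracted calls at a MAPQ of at least 10. What the authors deposited are counts of unmethylated and of methylated calls at every CpG of a library, not normalized and with both strands combined. Positions that were not CpGs of GRCm38 were left out, 43070 to 59226 per library on chromosomes 1 to 19.

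Calls were summed over CpGs in 500-bp tiles. A tile was tested when 5 or more libraries of each cell type had 5 or more calls. Each tile was fitted with a quasi-binomial logistic model (cell type, sex and assay), with the dispersion kept at 1 or above, an F test on the deviance, and Benjamini-Hochberg adjustment over all tiles. The fit was tested on simulated data. Levels over many valleys were given as mean ± SD and range with no test, because the members and lists were chosen with earlier results of these data known. Named tiles were those with the largest called difference of a valley, up to 10 in each direction, inside and beside the valleys. Also named were the 10 longest valleys, the valleys holding starts of B and T cell genes, and the 5 with the largest gap in low run in each direction, of which 1 is not reported here, nor is 1 of the markers examined. Valleys of the shared lymphocyte list and those with extreme values or the most called tiles were named after their values had been seen. So were the developmental valleys given as examples of gaps in low run. Genes came from GENCODE vM21. Tools were Python 3.11.15, NumPy 2.4.6, SciPy 1.17.1, R 4.3.3 and limma 3.58.1. Alternatives were other valley limits, other call limits, limma on log2 ratios with a pseudocount of 0.5, single assays or sexes, and the omission of each library. Counting error only limits the precision of tiles with few calls.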

Additional observations from a re-analysis of the deposited data

Results flagged for a closer look

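Among 100 groups of 4 or 8 libraries examined, 19 had a highest or lowest library far from the rest by Dixon's criterion, which chance meets in about 1 of 20 groups. Of these, 6 were replicate 2 of the male oxBS libraries of B cells, which are not independent of each other: 3.02% inside all valleys (next library 2.34%), 4.33% in valleys of the developmental lists (3.68%), 2.15% in those of the lymphocyte lists (1.52%), 1.55% in valleys at 1% or less (0.899%), 3.02% in those above 1 up to 3% (2.28%) and 4.97% in those above 3% (4.29%). This library also stood apart in the inside tile at Mgat1, with 6.25% (2.06%). Replicate 14 of the T cell oxBS libraries was low in the first 1 kb beside valleys, with 34.2% (34.5%), and replicate 11 of the B cell oxBS libraries from 1 to 5 kb, with 51.6% (53.8%).

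In single tiles inside valleys a T cell library stood apart at Bcl6 (6.06%, next 2.04%), Sp3 (10.0%, 2.08%), Zbtb7b (1.85%, next 0) and Midn (7.69%, 2.38%), and a B cell library at Dusp2/Astl (2.78%, next 0). Beside valleys, a T cell library stood apart at Bach2 (4.55%, next 0) and at Foxp1 (67.6%, 84.1%). Replicate 3 of the male oxBS libraries of B cells was low beside the first Tspoap1 valley (71%, 89.7%) and beside Plekha2 (3.33%, 9.09%) and high beside Nipbl (45.5%, 21.4%). In tiles with few calls, a single methylated call can set a library apart.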

How the results depend on the processing

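The number of valleys, 503 under the rule, was 929 with at least 6 tiles, 282 with at least 8, 229 at 5% or less and 785 at 15% or less, and between 457 and 566 under the other 7 alternatives. Tiles called inside, 39, were 246 with no limit on the difference, 124 with at least 5 points and 0 with at least 20 points, which is about the largest difference that the 10% limit allows. With 8 libraries, inside tiles called were 2 in BS libraries alone, 6 in oxBS, 2 in female and 3 in male libraries, and tiles beside, 1014, were 144, 273, 131 and 129. Fewer libraries entered these fits. Over 5 tiles on each side there were 590 called tiles beside valleys, and over 20 tiles 1728. The share of called tiles beside valleys that were higher in B cells, 65.8%, was 73.6% in BS, 87.5% in oxBS, 80.2% in female and 77.5% in male libraries, and inside, 84.6%, it was 75.6% with no limit, 74.2% with 5 points while BS and female libraries each gave 1 tile in each direction. Between BS and oxBS 2 tiles beside valleys were called when the dispersion could fall below 1. The B minus T level in the first 1 kb was -1.02 points in BS and 3.66 points in oxBS libraries alone, and the cause was not tested. Leaving out each library in turn gave 33 to 43 tiles inside, 917 to 991 beside, a difference of 0.0214 to 0.187 points inside and of 0.961 to 1.65 points in the first 1 kb. The lowest inside difference was without replicate 2 of the male oxBS libraries of B cells. Of the 10 named tiles beside valleys that were higher in B cells, 277 of 280 combinations of tile and setting kept the call, of those higher in T cells 267 of 280, inside 230 of 280 and 124 of 168. The limit of 20 points is among these settings, and every inside tile lost its call under it. No paired analysis was possible because the library numbers, 1 to 16, are not shared between groups.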
